A study of Mus musculus with 4 samples.

Results

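Aminoacyl-tRNA synthetases were described in mouse T-helper 17 (Th17) cells, CD4 T cells named for the secretion of interleukin 17. The members were 36 genes taken by symbol from a list of these enzymes, out of 50600 genes in the tables. They comprised 20 cytosolic forms and 16 mitochondrial forms, whose symbols carry the suffix 2. RNA sequencing was available for 4 libraries of 1 group, labelled as biological replicates 1 to 4 of primary Th17 cells from C57BL/6NJ mice, with no treatment, genotype or control group beside it. Age was given as unknown and sex as not collected, and the library names carry the marks 72 hr and sorted. No label ties a library to its own animal or culture, so every spread given is that between these samples and may be technical in part.

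These enzymes attach each amino acid to its transfer RNA, the step that gives the genetic code its meaning. Cytosolic forms supply the ribosomes that translate nuclear messenger RNAs, and mitochondrial forms, also encoded in the nucleus, supply the ribosomes that translate the few proteins of the mitochondrial genome. In mammals Gars and Kars serve both compartments, Eprs joins glutamate and proline in a single protein, and Farsa and Farsb are the subunits of a single enzyme. Several cytosolic forms sit in a multi-synthetase complex with the scaffold proteins Aimp1, Aimp2 and Eef1e1. Activated T cells grow and divide quickly, and many cytosolic synthetase genes are known targets of the transcription factors ATF4 and MYC.

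Library totals ran from 9382661 to 34542693 counts of read pairs. Markers of the label were present: all 6 Th17 markers and all 4 T-cell markers had at least 1 TPM in every library. TPM is a level per base of exon, scaled to a fixed total in each library. That bar was also met by 47.6% of protein-coding genes, but Il17a and Il17f stood at 7787 ± 754 and 11651 ± 878 TPM (SD, n = 4). Markers of other T-helper fates were not examined. Summed markers of B cells, macrophages, dendritic cells and neutrophils reached at most 2.67 TPM in any library, with Ms4a1, H2-Aa, S100a8 and S100a9 at 0 counts, and the CD8 pair lay between 11.3 and 15.4 TPM, nearly all from Cd8b1. All 4 libraries share a donor label, yet Xist held 33289 and 25056 counts in replicates 1 and 2 against 110 and 94 in replicates 3 and 4. The Y-linked gene Ddx3y went the other way, with 9 and 5 counts in replicates 1 and 2 against 885 and 2515 in replicates 3 and 4, so the libraries did not all come from the same animal. These counts are those of female cells in replicates 1 and 2 and of male cells in replicates 3 and 4. Every SD over 4 libraries therefore covers both sexes. In bulk RNA, fewer cells that express a gene and less RNA per cell cannot be told apart.

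The first comparison set cytosolic against mitochondrial forms within the same library. A level of 1 TPM or more in each library was met by all 36 members, beside 47.6% of the 21764 protein-coding genes, and all 36 passed 5 TPM as well. The members together took 0.648%, 0.671%, 0.657% and 0.633% of all counts in replicates 1 to 4. The median cytosolic form stood at 193 ± 4.42 TPM and the median mitochondrial form at 26.2 ± 0.986 TPM (SD, n = 4), a ratio of 7.34 ± 0.218. Among protein-coding genes with at least 1 TPM in every library the median level was 32.0 TPM. In each library the lowest cytosolic form, Cars, lay above every mitochondrial form but Lars2.

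**Figure D1:**
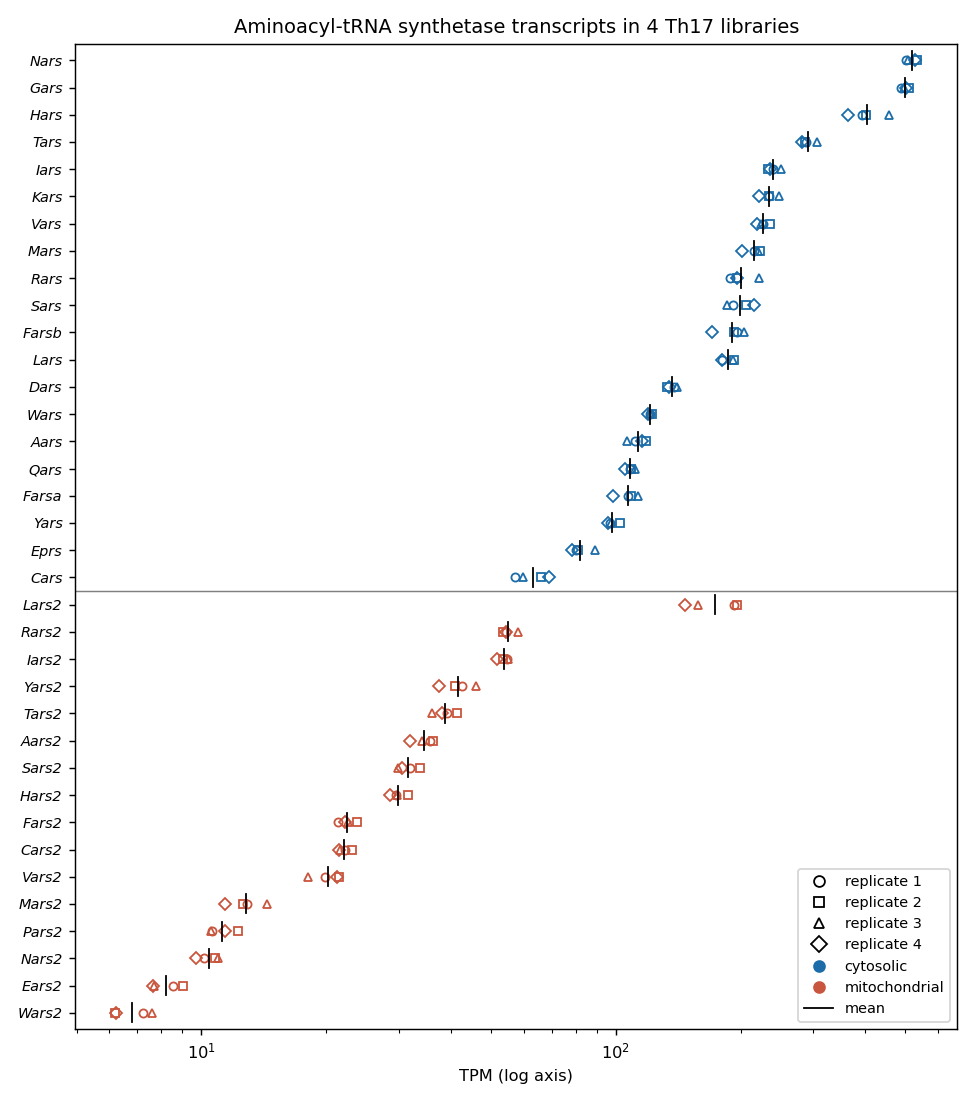
TPM (log axis) of the 36 members, cytosolic forms above the line and mitochondrial forms below it, each ordered by its mean. Each of the 4 symbols is a library and the bar is the mean: cytosolic means run from 63.0 to 518 TPM and mitochondrial means from 6.82 to 174 TPM, with Lars2 apart from its neighbours.

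Asparagine and glycine enzymes led the cytosolic forms. Nars, which charges asparagine, had 503, 534, 509 and 528 TPM in replicates 1 to 4, and Gars, the glycine enzyme of both compartments, had 487, 511, 495 and 503 TPM. Nars was above Gars in each library, although their ranges over libraries overlapped. Nars stood above 98.9% and Gars above 98.8% of protein-coding genes. Hars, the histidine enzyme, followed at 394, 402, 456 and 363 TPM, with its peak in replicate 3, and its range touched neither neighbour. Tars, the threonine enzyme, came next at 290.3 ± 10.5 TPM (SD, n = 4).

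A middle block held forms that overlapped their neighbours, although Iars and Kars lay above Farsb and Lars in every library. Iars, Kars, Vars, Mars, Rars, Sars, Farsb and Lars, for isoleucine, lysine, valine, methionine, arginine, serine, phenylalanine and leucine, lay between 186 and 239.7 TPM in the mean. Each overlapped the next over the 4 libraries, and in the whole cytosolic order 11 of 19 neighbouring steps overlapped. Below them stood Dars (aspartate, 137 ± 3.38 TPM), Wars (tryptophan, 121 ± 1.15 TPM), Aars (alanine, 113 ± 5.30 TPM), Qars (glutamine, 109 ± 2.33 TPM), Farsa (107 ± 6.27 TPM) and Yars (tyrosine, 98.1 ± 2.84 TPM). The last places went to Eprs, at 80.2, 81.1, 89.0 and 78.3 TPM, and Cars, the cysteine enzyme, at 57.2, 66.1, 59.9 and 68.8 TPM. Cars was below Eprs in each library and still above 85.5% of protein-coding genes.

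Lars2, the mitochondrial leucine enzyme, did not lie with the other mitochondrial forms. It had 193, 196, 158 and 147 TPM in replicates 1 to 4, high in replicates 1 and 2 and low in replicates 3 and 4. The same replicates are set apart by Xist and Ddx3y. Sex and any other difference between these sets of libraries cannot be told apart, and their part in the Lars2 values was not tested. In raw counts Lars2 was the most counted of the 36 members in every library, with 22467, 15766, 5003 and 14251 counts. The tables give a single count for the gene, so whether its reads come from all of its 11089 merged exon bases or from a part of them was not tested, and this bears on every Lars2 level given. The next mitochondrial forms, Rars2 for arginine and Iars2 for isoleucine, had 55.1 ± 2.06 and 53.7 ± 1.42 TPM (SD, n = 4), and their ranges overlapped. Yars2, Tars2, Aars2, Sars2 and Hars2 lay between 29.8 and 41.7 TPM in the mean, each overlapping the next. Fars2, Cars2 and Vars2 came below them at 22.5 ± 0.967, 22.1 ± 0.699 and 20.2 ± 1.59 TPM.

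The lowest mitochondrial forms were those for methionine, proline, asparagine, glutamate and tryptophan. Mars2, Pars2 and Nars2 had 12.8 ± 1.22, 11.2 ± 0.804 and 10.4 ± 0.582 TPM (SD, n = 4). Ears2, which also makes the precursor of mitochondrial glutaminyl-tRNA, had 8.53, 9.03, 7.70 and 7.64 TPM, and Wars2 had 7.25, 6.20, 7.61 and 6.22 TPM. Wars2 rested on 129 to 452 counts in a library. Wars2 was still above 59.7% of protein-coding genes.

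Promoters were read to see what members share in sequence. Promoter windows of 300 bases, from 250 before to 50 after the annotated start, were found in RefSeq (GRCm38.p6) for 27 of the 36 members, 13 cytosolic and 14 mitochondrial. The C/EBP-ATF response element, to which ATF4 binds with a C/EBP partner, was searched as TGATGNAA on both strands. It was present in the windows of 5 cytosolic genes, Aars, Gars, Iars, Tars and Yars, and in 0 of 14 mitochondrial ones, beside 4.51% of 27025 genes and 3.97% of 32851 windows in the table. A match is a description of letters and not of binding. The 5 windows are printed 5′ to 3′ on the strand of the gene, with the element in capitals as it reads on that strand. They lie at chr8:111033592-111033891 (Aars), chr6:55037751-55038050 (Gars), chr13:49681880-49682179 (Iars) and chr4:129189653-129189952 (Yars) on the plus strand, and at chr15:11399609-11399908 (Tars) on the minus strand.
Aars: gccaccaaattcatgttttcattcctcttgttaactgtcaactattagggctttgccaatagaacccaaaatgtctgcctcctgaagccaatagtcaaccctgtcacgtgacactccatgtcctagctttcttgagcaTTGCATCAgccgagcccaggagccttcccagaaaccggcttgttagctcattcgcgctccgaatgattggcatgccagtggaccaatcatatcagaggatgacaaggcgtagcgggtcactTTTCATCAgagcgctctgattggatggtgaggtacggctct
Gars: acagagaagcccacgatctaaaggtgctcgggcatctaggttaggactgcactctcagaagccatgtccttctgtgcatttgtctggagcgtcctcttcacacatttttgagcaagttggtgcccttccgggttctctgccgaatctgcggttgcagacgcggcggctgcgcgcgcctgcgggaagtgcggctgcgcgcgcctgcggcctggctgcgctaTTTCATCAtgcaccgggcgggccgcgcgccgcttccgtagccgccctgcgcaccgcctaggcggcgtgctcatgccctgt
Iars: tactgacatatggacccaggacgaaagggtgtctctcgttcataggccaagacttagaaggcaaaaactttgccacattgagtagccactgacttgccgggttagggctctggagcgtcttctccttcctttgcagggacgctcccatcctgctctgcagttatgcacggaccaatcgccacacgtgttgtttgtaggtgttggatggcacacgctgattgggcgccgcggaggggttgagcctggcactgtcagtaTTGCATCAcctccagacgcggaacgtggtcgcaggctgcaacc
Tars: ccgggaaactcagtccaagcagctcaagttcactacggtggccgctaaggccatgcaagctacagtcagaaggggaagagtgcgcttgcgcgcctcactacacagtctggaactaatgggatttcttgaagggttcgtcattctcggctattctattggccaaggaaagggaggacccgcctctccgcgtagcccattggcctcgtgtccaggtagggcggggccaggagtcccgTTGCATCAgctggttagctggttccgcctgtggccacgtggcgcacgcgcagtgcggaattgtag
Yars: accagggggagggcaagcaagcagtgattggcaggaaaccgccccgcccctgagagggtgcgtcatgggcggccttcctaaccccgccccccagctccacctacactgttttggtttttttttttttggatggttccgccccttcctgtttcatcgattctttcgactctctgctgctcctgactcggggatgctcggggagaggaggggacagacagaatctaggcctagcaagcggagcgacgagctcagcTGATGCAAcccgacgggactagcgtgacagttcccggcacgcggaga

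The element could only be found close to the annotated start, because the windows reached from 250 bases before it to 50 after it. Its first base was at -112 and at 10 in Aars, which has a pair of matches, at -30 in Gars, at 8 in Iars, at -15 in Tars and at 4 in Yars, counted from 1 at the start base with no position 0. The Aars window lies wholly inside the counted gene, which begins at 111033144. The counted Yars gene begins at 129189760, inside its window and ahead of the annotated start used here. The match lay on the strand opposite to the gene except in Yars. Their levels ran from 98.1 TPM for Yars to 499 TPM for Gars.

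Cytosolic and mitochondrial enzymes for the same amino acid were then compared pair by pair. Of 17 pairs, the cytosolic form was higher in all 4 libraries in 16, and the exception was leucine. With merged lengths the asparagine pair was the widest, with Nars 49.9 ± 3.32 times Nars2 (SD, n = 4), followed by tryptophan (Wars, 17.9 ± 1.88 times Wars2), methionine (Mars, 16.9 ± 1.11 times Mars2) and histidine (Hars, 13.5 ± 1.24 times Hars2). On the same scale the narrowest of the 16 were alanine (Aars, 3.28 ± 0.249 times Aars2), cysteine (Cars, 2.85 ± 0.260 times Cars2) and tyrosine (Yars, 2.36 ± 0.201 times Yars2). Ratios in the other pairs, Eprs against Ears2 and Pars2 and both phenylalanine subunits against Fars2 among them, lay between these. For each of the 16 pairs an exact permutation test that flips the signs of the 4 library differences (two-sided) gave p = 0.125, the smallest that 4 libraries allow, so no pair could reach 0.05.

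Lars and Lars2 did not differ in a fixed direction. Lars had 180.2, 193, 192 and 180.0 TPM in replicates 1 to 4, set against 193, 196, 158 and 147 TPM for Lars2. Lars2 was thus higher in replicates 1 and 2 and lower in replicates 3 and 4, the split that Xist and Ddx3y also show. The mean difference, Lars minus Lars2, was 0.11 ± 0.20 on the log2(TPM + 1) scale (exact sign-flip permutation test, two-sided, p = 0.5, n = 4).

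**Figure D2:**
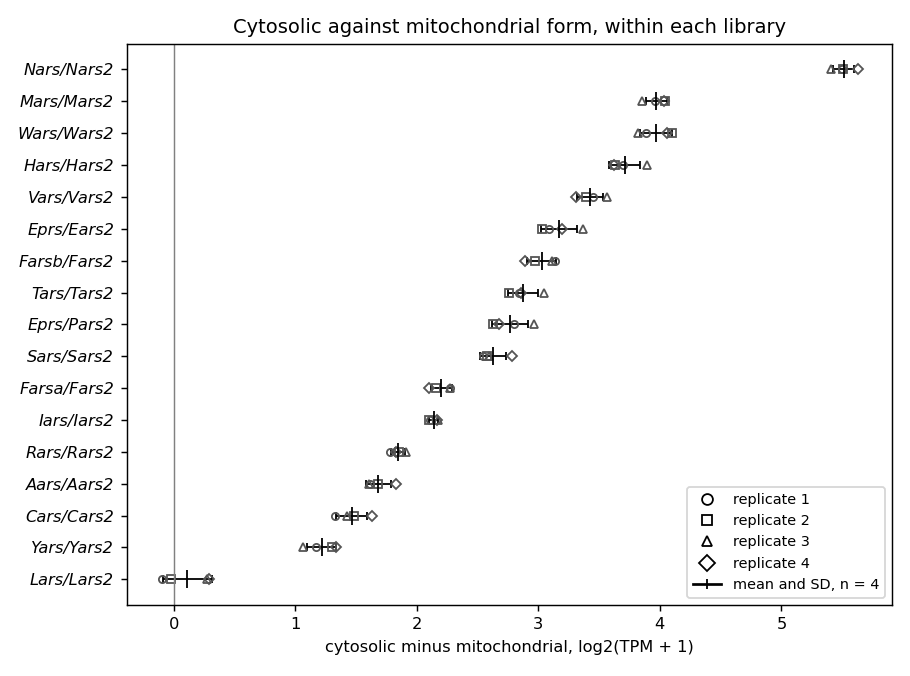
Difference within each library between the cytosolic and the mitochondrial form for the same amino acid, in log2(TPM + 1), for 17 pairs, with the 4 libraries as symbols and the mean and SD as bars. All pairs lie right of 0 in every library except Lars and Lars2, whose 4 values fall on both sides, from -0.10 to 0.29.

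These levels depend on the length by which counts are divided. The deposited lengths merge the exons of all transcripts of a gene, and for 12 of the 36 members they are over 2 times the length of the principal transcript, the main coding form in GENCODE release 21. Eprs has 18102 merged bases against 4906 in its principal transcript, and moved to 211 ± 12.1 TPM with the shorter length, beside 82.1 ± 4.72 TPM with the merged one (SD, n = 4). Tars goes the other way, with 4005 bases in release 21 against 2636 merged in release 13, and stood at 133 ± 4.81 TPM in place of 290.3 ± 10.5 TPM. A gene with equal lengths keeps 0.696 of its value on the principal scale, because the total changes, and the median over expressed protein-coding genes shifts by -0.17 on the log2 scale, against 0.07 for the members.

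With principal lengths, the cytosolic form stood above its partner in every library in 16 of 17 pairs, and the leucine pair took a direction. Lars stood at 125 ± 4.73 TPM and Lars2 at 344 ± 49.0 TPM (SD, n = 4), a ratio of 0.370 ± 0.0518. Lars2 has 11089 merged bases against 3894 in its principal transcript. The sizes and the order of the other ratios moved too. Nars stood at 26.0 ± 1.73 times Nars2 and Wars at 25.0 ± 2.64 times Wars2, which no longer set the asparagine pair apart. Several ratios narrowed, among them those of Tars to Tars2 (1.72 ± 0.153), Cars to Cars2 (1.53 ± 0.140) and Hars to Hars2 (10.5 ± 0.964). Others widened, among them those of Farsa to Fars2 (11.8 ± 0.720, beside 4.77 ± 0.290 with merged lengths) and Eprs to Pars2 (19.2 ± 2.13, beside 7.36 ± 0.817). In CPM, with no length, Eprs against Pars2 (43.1) and against Ears2 (35.3) exceeded Nars against Nars2 (18.9). Gars led the order at 455 ± 9.37 TPM, ahead of Kars at 363 ± 16.5 TPM and Nars at 346 ± 10.1 TPM, so the order among the top forms turned with the length used. Counts from exons outside the principal transcript are still included in this scale. The reverse holds most for Tars, whose principal transcript is longer than its counted exons. Reads on the extra bases were not counted, so the principal level of Tars and its ratio to Tars2 may be too low. How much of that narrowing comes from the lengths was not tested.

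**Figure D3:**
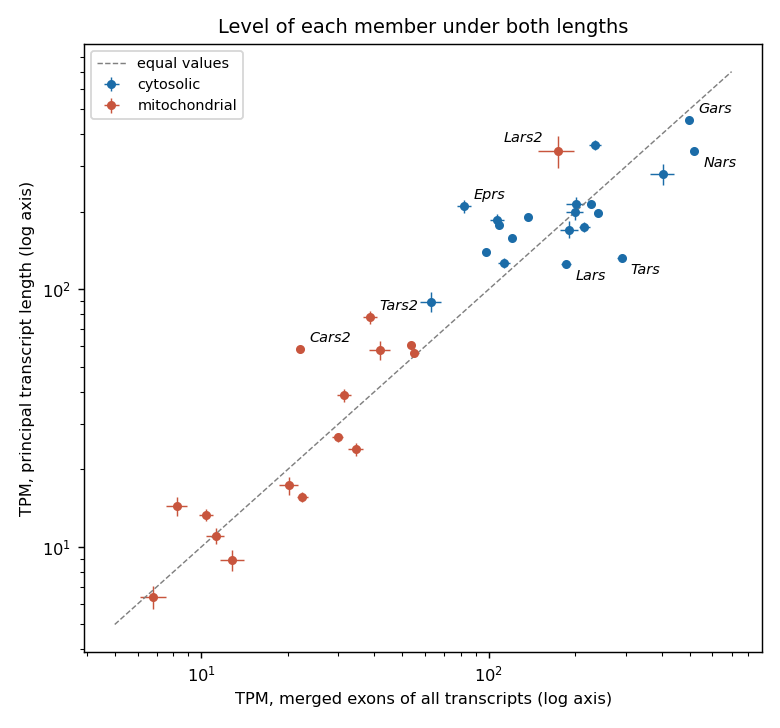
Mean level of each member with merged exon lengths (x) and with principal transcript lengths (y), both in TPM on log axes, with SD over 4 libraries as bars. Cytosolic forms lie above the mitochondrial forms on both scales except for Lars2, and Eprs, Cars2 and Tars change place most among the labelled genes.

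Other traits separated the forms less than compartment did. The 8 cytosolic forms of the multi-synthetase complex (Dars, Eprs, Iars, Kars, Lars, Mars, Qars and Rars) had a median of 193 ± 9.56 TPM, and the 12 cytosolic forms outside it 195 ± 3.05 TPM (SD, n = 4). The 9 cytosolic forms of class I, the structural class with a Rossmann fold at the active site, had a median of 186 ± 7.08 TPM, and the 10 of class II 220.0 ± 4.64 TPM. Eprs, with a domain of each class, was in neither group. Among mitochondrial forms, class I had 22.1 ± 0.699 TPM and class II 29.8 ± 1.27 TPM, but with principal lengths the order turned, to 55.1 ± 2.16 and 24.0 ± 1.37 TPM.

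Subunits of 1 enzyme or complex could be set side by side. Farsb, the beta subunit of phenylalanyl-tRNA synthetase, had 196, 193, 204 and 170 TPM, and Farsa, the alpha subunit, had 107, 109, 113 and 98.5 TPM. The ratio of Farsb to Farsa was therefore steady at 1.78 ± 0.0406 with merged lengths, and it was 0.922 ± 0.0210 with principal lengths (SD, n = 4). Both subunits peaked in replicate 3 and were at their lowest in replicate 4. The scaffold genes of the multi-synthetase complex stood at 349.5 ± 8.23 TPM for Eef1e1, 161 ± 2.15 TPM for Aimp2 and 50.2 ± 1.84 TPM for Aimp1, with 82.1 to 239.7 TPM for the 8 synthetases. With principal lengths the scaffold order turned as well, the ratio of Aimp2 to Aimp1 being 0.903 ± 0.0280 in place of 3.21 ± 0.0998. Eef1e1 stood lowest of the scaffold genes on that scale, at 98.3 TPM in the mean. Its principal transcript has 2553 bases against 1032 in its counted exons, so that level may be too low.

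Partners of mitochondrial charging lay within the range of the mitochondrial forms. Mitochondria lack a glutaminyl enzyme of their own and convert the product of Ears2 with an amidotransferase, whose subunit genes are Qrsl1, Gatb and Gatc. Qrsl1 had 21.7 ± 2.12 TPM and Gatc 43.5 ± 3.36 TPM (SD, n = 4), and Gatb had 13.3, 13.8, 12.2 and 10.6 TPM. Mtfmt, which formylates the initiator methionine, had 23.5 ± 1.01 TPM. Tarsl2, a paralogue of Tars, stood at 12.9 ± 1.10 TPM.

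The second question was whether the members varied between the libraries. The variable-gene test set each gene's spread over 4 libraries against that of genes of like abundance. It called 0 of 36 members at an adjusted p of 0.05 (edgeR quasi-dispersion test), where 0.00823% of the 12156 genes tested were called. Without adjustment, the same threshold marked 1 member, Lars2, beside 4.9% of all genes tested. The adjusted p of Lars2 was 0.973 (edgeR quasi-dispersion test). DESeq2 marked 0 members as dispersion outliers, beside 111 of 21299 genes, a share at which 0 of 36 says little. A p that misses the threshold does not show that the members were equal between libraries.

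In size, the spread was small. The median coefficient of variation of CPM, counts scaled to the normalised library size, was 4.5% over cytosolic forms and 6.23% over mitochondrial forms, beside 7.91% over all genes tested. That wider set includes many genes of low abundance, where counting error is larger. Relative to genes of like abundance, the median ratio of a gene's quasi-dispersion to its trend was 0.744 for cytosolic forms and 0.609 for mitochondrial forms, beside 0.917 for all genes tested. Wars was the steadiest member at 1.54%, with 121, 122, 121 and 119 TPM in replicates 1 to 4. The widest spreads among cytosolic forms were those of Hars (10.4%), Cars (8.28%), Farsb (8.16%) and Rars (8.07%), and among mitochondrial forms those of Lars2 (14.3%), Wars2 (11.1%), Mars2 (10.4%) and Yars2 (9.16%). The highest library exceeded the lowest by 1.35-fold for Lars2, 1.29-fold for Mars2 and 1.28-fold for Hars.

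**Figure D4:**
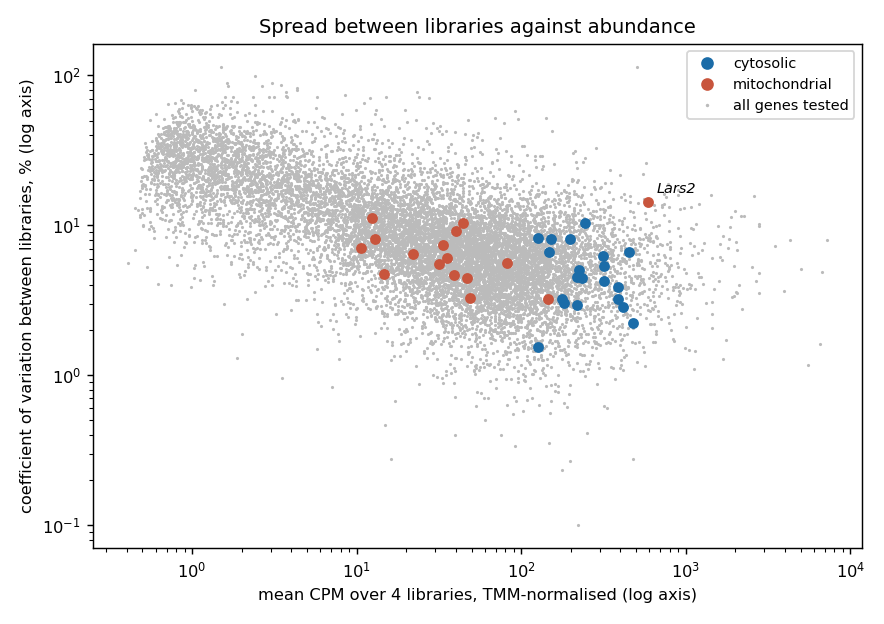
Coefficient of variation between the 4 libraries (%, log axis) against mean TMM-normalised CPM (log axis) for cytosolic forms, mitochondrial forms and all 12156 genes tested. Members lie within the cloud of other genes, with Lars2 at its upper side at 14.3%.

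The small differences had an order over the libraries. Replicate 3 held the highest CPM of 11 cytosolic forms, replicate 2 that of 7 and replicate 4 that of 2, and among mitochondrial forms replicate 2 led for 10 and replicate 3 for 6. No member was highest in replicate 1. Over all genes tested, 14.9%, 18%, 33.9% and 33.2% were highest in replicates 1 to 4. The lowest CPM lay in replicate 4 for 12 of 20 cytosolic and 10 of 16 mitochondrial forms, and in replicates 1 to 3 for 6, 3 and 5 of all 36 members. Over all genes tested, 16%, 16.9%, 34.2% and 32.9% were lowest in replicates 1 to 4. In replicates 1 to 4 the median shift against the other 3 libraries, in log2 CPM, was -0.03, 0.04, 0.07 and -0.06 for cytosolic forms, and 0.01, 0.11, 0.01 and -0.09 for mitochondrial forms. These counts describe genes that share a library and its scaling, and they carry no test.

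Single members moved more than the medians. Hars shifted by 0.26 in replicate 3 and by -0.21 in replicate 4 on the log2 CPM scale. Rars shifted by 0.22 in replicate 3, and Farsb by -0.23 in replicate 4. Lars2 shifted by 0.21 and 0.25 in replicates 1 and 2 and by -0.14 and -0.32 in replicates 3 and 4. Cars and Sars took another order and peaked in replicate 4, with shifts there of 0.16 and 0.13. Of the genes with a C/EBP-ATF element in their promoter window, Aars, Gars and Yars peaked in replicate 2, and Iars and Tars in replicate 3. Their extreme libraries differed by only 1.06-fold (Gars) to 1.11-fold (Tars), so these peaks do not show whether they share an order.

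**Figure D5:**
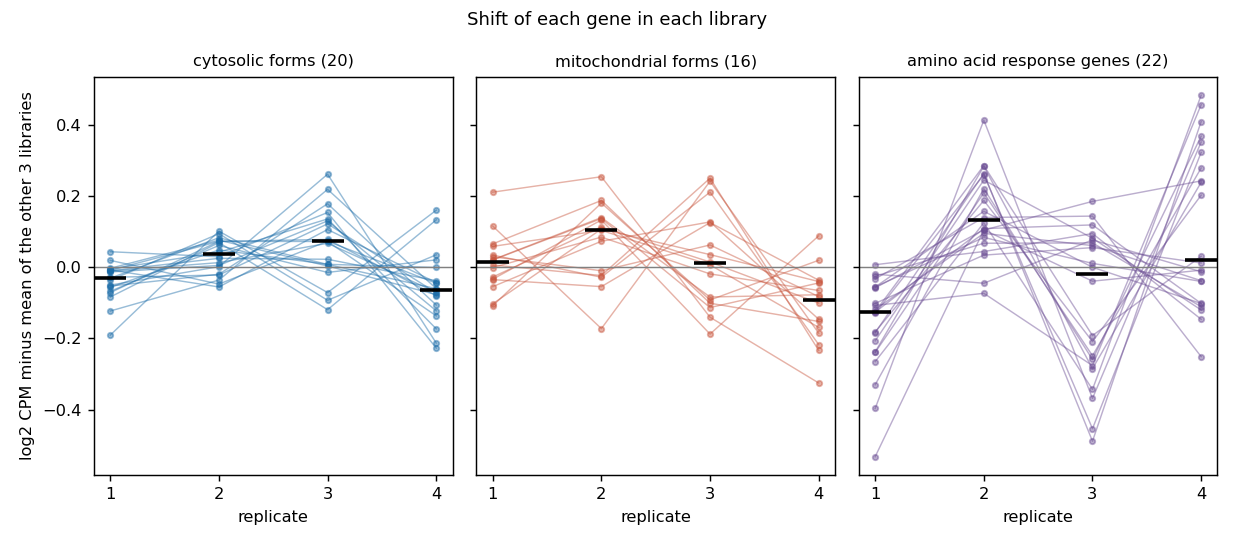
Shift of each gene in each library, as log2 CPM minus the mean of the other 3 libraries, for 20 cytosolic forms, 16 mitochondrial forms and 22 amino acid response genes. Thin lines join the values of 1 gene across replicates, which have no order, and black bars are medians: the response genes spread more widely than the synthetases, with medians of -0.13, 0.13, -0.02 and 0.02.

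Genes of the amino acid response were set beside the members because cytosolic synthetase genes are known targets of ATF4, the transcription factor made when charged transfer RNA runs low. Atf4 itself had 808, 874, 802 and 831 TPM. Asns, the asparagine synthetase and a classical ATF4 target, had 127, 153, 123 and 156 TPM, high in replicates 2 and 4. Trib3, a pseudokinase of the same response, had 40.2, 52.4, 38.6 and 51.7 TPM, Chac1, which degrades glutathione, had 19.3, 23.5, 16.1 and 24.5 TPM, and Cth, of cysteine synthesis, had 26.8, 35.5, 27.4 and 38.7 TPM. These response genes were picked from the list after their values were seen, and others of the list took another order. In CPM, replicate 4 was highest for 8 of the 22 genes and lowest for 4. Among those 4 were Slc7a5 (342, 371, 368 and 306 TPM) and Phgdh (265, 294, 268 and 259 TPM). In CPM the extreme libraries of the members differed by between 1.03-fold, for Wars, and 1.35-fold, for Lars2. Asns (1.24-fold) and Trib3 (1.34-fold) lay within that range, as did Atf4 (1.09-fold) and Psat1 (1.07-fold). Chac1 (1.497-fold) and Cth (1.44-fold) lay beyond it, as did other genes of the list.

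The response list spread more than the synthetases. Its 22 genes had a median coefficient of variation of 11.0%. Of them 8 peaked in replicate 2, 6 in replicate 3 and 8 in replicate 4, beside 18%, 33.9% and 33.2% of all genes tested. The variable-gene test called 0 of the 22, beside 0.00823% of all genes tested. Without adjustment it marked 1, Eif4ebp1, an inhibitor of translation initiation, beside 4.9% of all genes tested. Eif4ebp1 had 112, 137, 106 and 166 TPM, highest in replicate 4 (edgeR quasi-dispersion test, adjusted p = 0.806). Of the 9 charging partners 0 passed the adjusted threshold, beside the same 0.00823% of all genes tested, and the median spread was 4.08%.

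Position was read as a further trait. A protein-coding gene on the opposite strand started within 1000 bases, head to head, for 4 of 20 cytosolic and 5 of 16 mitochondrial forms, 25% of the members in all, beside 17.7% of protein-coding genes with at least 1 TPM in every library. Hars and Hars2 are each other's neighbour and each is counted. The difference between these shares was not tested. In mm10 coordinates, Hars (ENSMUSG00000001380.6) lies on the minus strand of chromosome 18 from 36766530 to 36783205, and Hars2 (ENSMUSG00000019143.15) on the plus strand from 36783008 to 36792562. Their starts are 197 bases apart and their 5′ ends overlap, while Hars stood at 13.5 times Hars2 with merged lengths, in counts that were kept apart by strand. Sars2 starts 172 bases from Mrps12, a gene of the small mitochondrial ribosomal subunit, which stood at 134 ± 10.2 TPM beside 31.5 ± 1.77 TPM for Sars2 (SD, n = 4). Rars2 starts 13 bases from Orc3, of the origin recognition complex, with 58.5 ± 3.08 TPM for Orc3 beside 55.1 ± 2.06 TPM for Rars2.

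For Aars, 1326 bases, 14.3% of its merged exons, also belong to Exosc6 on the same strand. Read pairs there were counted for neither gene, and Exosc6 was at 0 counts in every library. Such pairs are therefore missing from the Aars values. No other member shared exonic bases with a gene on its own strand.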

How the data were processed

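The authors deposited unnormalised counts, whole numbers of read pairs assigned to each gene, for each library. Per the file headers, the counter was featureCounts (1.4.6-p4) with the GENCODE mouse release 13 exons, reverse-stranded, both mates required to align, and with reads that map to several places or genes not counted. The build is mm10 per the labels. The aligner is not stated in the sources used here. The assay is labelled as total RNA, whereas the linked library protocol is named for poly(A) RNA.

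Symbols came from GENCODE release 21 (50376 of 50600 identifiers matched, all 36 members among them). Counts divided by the deposited lengths gave TPM, with log2 differences at a pseudocount of 1. Pairs were compared with an exact sign-flip permutation test over 4 libraries. For the variable-gene test, an intercept-only model was fitted in edgeR 4.0.16 over the whole table (TMM normalisation, filterByExpr). The quasi-dispersion over its abundance trend was set against the F distribution (upper tail, Benjamini-Hochberg over 12156 genes, threshold 0.05). The step was tested on simulated data drawn at the trended dispersion, with changes larger than any between libraries in a member. That check does not show that changes of the size seen in members would be called. Alternatives were RLE size factors, other filters, DESeq2 1.42.0, CPM, other pseudocounts, principal transcript lengths (chosen after seeing the data) and each library left out.

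The members and gene lists were chosen with earlier results of these data known. The text may name any member and any gene of the charging-partner, amino acid response and marker lists. Divergent neighbours were chosen by position. For 1 charging partner, values are not reported here. A planned comparison with amino acid use was not run.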

Additional observations from a re-analysis of the deposited data

Results flagged for a closer look

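Over the 86 values examined (the genes, pairs and medians above), 2 had a library far from the other 3, by the ratio of its gap to the whole range (Dixon's test). Chance flags about 5% of such groups of 4. Qrsl1, a subunit gene of the mitochondrial amidotransferase, was lowest in replicate 4 at 18.6 TPM, while the other libraries lay between 22.6 and 23.0 TPM. Slc3a2, the heavy chain of amino acid transporters, was lowest in replicate 1 at 199 TPM, while the other libraries lay between 212 and 213 TPM. No member was among them.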

How the results depend on the processing

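In 16 of 17 pairs the cytosolic form was higher in every library under each alternative run. Lars minus Lars2 reversed, to -1.41 log2 units in CPM without length correction and to -1.44 with principal transcript lengths. The difference between the cytosolic and the mitochondrial median, 2.88 log2 units, was 2.62 in CPM, 2.79 as a mean of log2(TPM + 1), 2.82 without Gars and Kars, 2.70 with one-to-one pairs only and 3.09 without Lars2, and 2.86 to 2.90 with a library left out. The variable-gene test called 0 members under each alternative, with the smallest adjusted p among members from 0.315 to 0.988 (edgeR). Over all genes it called 126 of 21299 with no filter and 5 of 10643 with a mean count of at least 50. Without replicate 4 it called 20 of 12145, in place of 1 of 12156, and DESeq2 marked 111 of 21299. With a library left out, 0 to 8 members were highest in replicate 1, 16 to 26 in replicate 2, 18 to 24 in replicate 3 and 2 to 6 in replicate 4. The cause of these changes was not tested beyond the construction of each alternative. Counting error limits Wars2, Ears2 and Pars2 most, with 93 to 461 counts in a library. No pairing of samples between groups was possible because the study has 1 group.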

Other observations

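A second motif, the E-box CACGTG to which MYC and its partner MAX bind, was searched after the data were seen. The motif reads the same on both strands. It was present in the promoter windows of 4 of 13 cytosolic genes (Aars, Farsb, Iars and Tars) and 1 of 14 mitochondrial genes (Ears2), beside 8.09% of 27025 genes in the table. Aars, Iars and Tars held both motifs. Members with an E-box ran from 8.22 TPM for Ears2 to 290.3 TPM for Tars.

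The amino acid response list held genes of very unequal level. Psat1 and Phgdh, of serine synthesis, had 335 ± 9.84 and 272 ± 15.4 TPM, and Shmt2 and Mthfd2, of mitochondrial folate metabolism, had 423 ± 25.9 and 239.5 ± 8.93 TPM (SD, n = 4). Slc7a11, the cystine transporter, was at 0.609 ± 0.103 TPM with 26 to 84 counts in a library. Eif2ak4, the kinase that senses uncharged transfer RNA, had 20.1, 19.7, 20.8 and 20.2 TPM.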
